A study of Mus musculus with 30 samples.

Results

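The colony-stimulating factor 1 (CSF1) and transforming growth factor beta (TGF-beta) survival signals were followed through 9 genes: the ligands Csf1, Il34, Tgfb1 and Tgfb2, the receptors Csf1r, Tgfbr1 and Tgfbr2, and the intracellular relay genes Smad3 and Smad7. They were chosen by gene symbol, and all 9 were found among the 13788 genes of the deposited table. The table covers 30 RNA-seq libraries from primary microglia, the resident macrophages of the brain, which were grown from mouse brain and shaken off after days of culture. Their 10 groups of 3 cross the labels WT (wild type) and PD-1 KO (knockout of the inhibitory receptor PD-1, encoded by Pdcd1) with 5 conditions: 0 h, then 2 h or 8 h, either untreated or given amyloid-beta. Amyloid-beta was given as conditioned medium, and the medium of the untreated cultures is not stated. The mice's age and strain are not given in the labels, nor is it stated whether the 3 libraries of a group came from separate animals or cultures. The p-values therefore measure only the spread between these libraries, which may be technical.

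The title of the series concerns the loss of PD-1 and microglial uptake of amyloid. In the 15 libraries labelled WT, Pdcd1 never left the floor of the table, a value of 1. Each of the 15 labelled PD-1 KO held it, at 6.02 to 25.3 (3 to 46 reads), so the targeted gene goes against the labels. The values are per gene and do not show which part of the transcript was read. Every direction is therefore given for the libraries as labelled. Astrocyte markers differed between the labels as well: the summed value of 10 markers was 1298 to 3923 in libraries labelled WT and 11515 to 28826 in those labelled PD-1 KO, with none of the 10 at the floor throughout. The summed value of 12 microglia markers was 71813 to 116630 in libraries labelled WT and 49185 to 90401 in those labelled PD-1 KO. The libraries held 4227019 to 48509985 reads (median 9603082).

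CSF1 and interleukin 34 (IL-34, from Il34) are the ligands of the CSF1 receptor, a tyrosine kinase on microglia and other macrophages, and microglia die when its signal is withdrawn. TGF-beta is released in a latent complex and has to be freed before it can bind TGFBR2, which recruits TGFBR1, which in turn phosphorylates SMAD2 and SMAD3. SMAD7 is induced by the pathway and inhibits its receptors. In the brain the ligands come from several cell types, among them astrocytes and microglia, and TGF-beta maintains the gene program of resting microglia.

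The promoters of 4 members are shown, chosen after their values were seen: Csf1 and Tgfb2 as ligands that were higher on average in libraries labelled PD-1 KO, and Tgfb1 and Tgfbr2 as genes that were lower. Each is the 250 bases before the start site from the RefSeq promoter table (GRCm38.p6), read on the gene's own strand, with matches to the NF-kB motif in capitals. Motif letters were searched on both strands, overlapping matches included.
Csf1, chr3:107760470-107760719, minus strand: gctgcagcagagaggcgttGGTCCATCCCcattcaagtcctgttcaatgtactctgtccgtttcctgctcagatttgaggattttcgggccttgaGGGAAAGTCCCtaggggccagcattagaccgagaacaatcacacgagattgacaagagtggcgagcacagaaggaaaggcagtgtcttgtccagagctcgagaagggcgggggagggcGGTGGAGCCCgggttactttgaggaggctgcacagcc
Tgfb2, chr1:186705990-186706239, minus strand: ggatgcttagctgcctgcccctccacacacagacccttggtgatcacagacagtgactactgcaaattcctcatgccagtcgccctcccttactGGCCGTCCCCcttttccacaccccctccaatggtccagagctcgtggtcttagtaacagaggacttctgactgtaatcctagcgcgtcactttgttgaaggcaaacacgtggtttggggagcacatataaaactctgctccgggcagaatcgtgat
Tgfb1, chr7:25686752-25687001, plus strand: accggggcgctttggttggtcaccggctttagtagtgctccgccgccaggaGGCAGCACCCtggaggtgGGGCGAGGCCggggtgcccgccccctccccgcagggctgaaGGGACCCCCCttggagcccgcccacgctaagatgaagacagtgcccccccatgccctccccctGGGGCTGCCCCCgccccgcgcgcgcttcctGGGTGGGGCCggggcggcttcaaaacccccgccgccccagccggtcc
Tgfbr2, chr9:116175364-116175613, minus strand: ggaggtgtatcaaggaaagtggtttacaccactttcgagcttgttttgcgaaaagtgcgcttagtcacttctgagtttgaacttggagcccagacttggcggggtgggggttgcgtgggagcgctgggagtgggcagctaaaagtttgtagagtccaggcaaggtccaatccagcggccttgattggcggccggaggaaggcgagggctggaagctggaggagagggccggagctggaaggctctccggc

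The NF-kB motif searched is 3 G, then any 5 bases, then 2 C. It matched 4 times before Csf1, of which GGGAAAGTCC (-155 to -146 from the start site) and GGAAAGTCCC (-154 to -145, on the other strand) overlap. The motif was found 1 time before Tgfb2 and 7 times before Tgfb1, and the letters were not found in the window of Tgfbr2. Before Tgfb1 the matches at -77 to -68, -76 to -67 and -75 to -66 overlap. The windows were 56.4% G or C for Csf1, 53.6% for Tgfb2, 75.2% for Tgfb1 and 58.4% for Tgfbr2. The motif occurred in 45.8% of the 32851 promoters of the same length, so its presence is common. AP-1 (TGANTCA, in 6.75% of promoters), CRE (TGACGTCA, 1.55%), PU.1 (GAGGAAGT, 2.44%) and the SMAD palindrome (GTCTAGAC, 0.167%) had 0 matches in these windows and in those of Tgfbr1 and Smad3. Promoters of 6 of the 9 genes were matched in the table, and Il34, Csf1r and Smad7 were not.

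Levels were compared between genes as normalised value per kilobase of annotated exon (GRCm38, mean ± SD over the 15 libraries of a label). Csf1r was the highest, at 1825 ± 282 per kilobase in libraries labelled WT and 1753 ± 305 in those labelled PD-1 KO, followed by Tgfb1 at 786 ± 47.8 and 672 ± 78.6. Tgfbr2 (446 ± 35.3 and 351 ± 46.5) and Tgfbr1 (400 ± 66.5 and 366 ± 59.8) came next, with Tgfbr2 the higher of the pair in WT and the lower in PD-1 KO, each time within their SDs. Receptors and Tgfb1 thus stood above the other ligands on the per-kilobase scale in both labels. Csf1 stood at 65.6 ± 18 per kilobase in WT, within its SD of Smad3 (61.9 ± 9.15), and at 185 ± 27.8 in PD-1 KO, above Smad3 (76.1 ± 11.7). Smad7 (17 ± 3.67 and 18.5 ± 2.74), Tgfb2 (9.21 ± 2.32 and 15.2 ± 3.67) and Il34 (1.53 ± 1.0 and 4.58 ± 3.14 per kilobase) were the lowest. Exons of 3 members overlap a gene on the other strand in the annotation, by 873 bases for Csf1r (Hmgxb3), 97 for Il34 (antisense genes Gm15894 and Gm15895) and 124 for Tgfb2 (antisense gene Gm29491). Whether the counting used strand is not given in the sources used here, so reads in those stretches cannot be assigned to one of the genes.

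The labelled genotypes were compared to ask how the signals differ between them. Averaged over the 5 conditions, 4 of the 9 genes were higher (Csf1, Il34, Tgfb2 and Smad3) and 3 lower (Tgfb1, Tgfbr1 and Tgfbr2). Of all tested genes 59.5% passed the threshold in this comparison, an adjusted p under 0.05 in limma, 30.3% higher and 29.1% lower. A call alone is therefore common here, and the size of a difference says more. Differences are log2 differences of the value plus 1, labelled PD-1 KO minus labelled WT, ± standard error (SE). The median over the 9 genes was 0.14, against -0.02 over all genes. Quantile normalization, which gives every library the same distribution, moved the median of all genes to -0.11 and the share of higher calls from 51.0% to 34.2%. With it 7 of the 9 also passed, but with Csf1r and Smad7 in place of Il34 and Tgfbr1.

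By condition, 3 of the 9 passed at 0 h (20.7% of all genes), 5 at 2 h (32.2%) and 5 at 2 h with amyloid-beta (38.9%). At 8 h 1 of the 9 passed (27% of all genes), and 4 at 8 h with amyloid-beta (33.7%). Csf1 passed in all 5 conditions. Groups of 3 that do not overlap were common as well, at 34.1% of tested genes at 0 h, 45.8% at 2 h, 43.2% at 2 h with amyloid-beta, 40.4% at 8 h and 55.6% at 8 h with amyloid-beta.

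**Figure D1:**
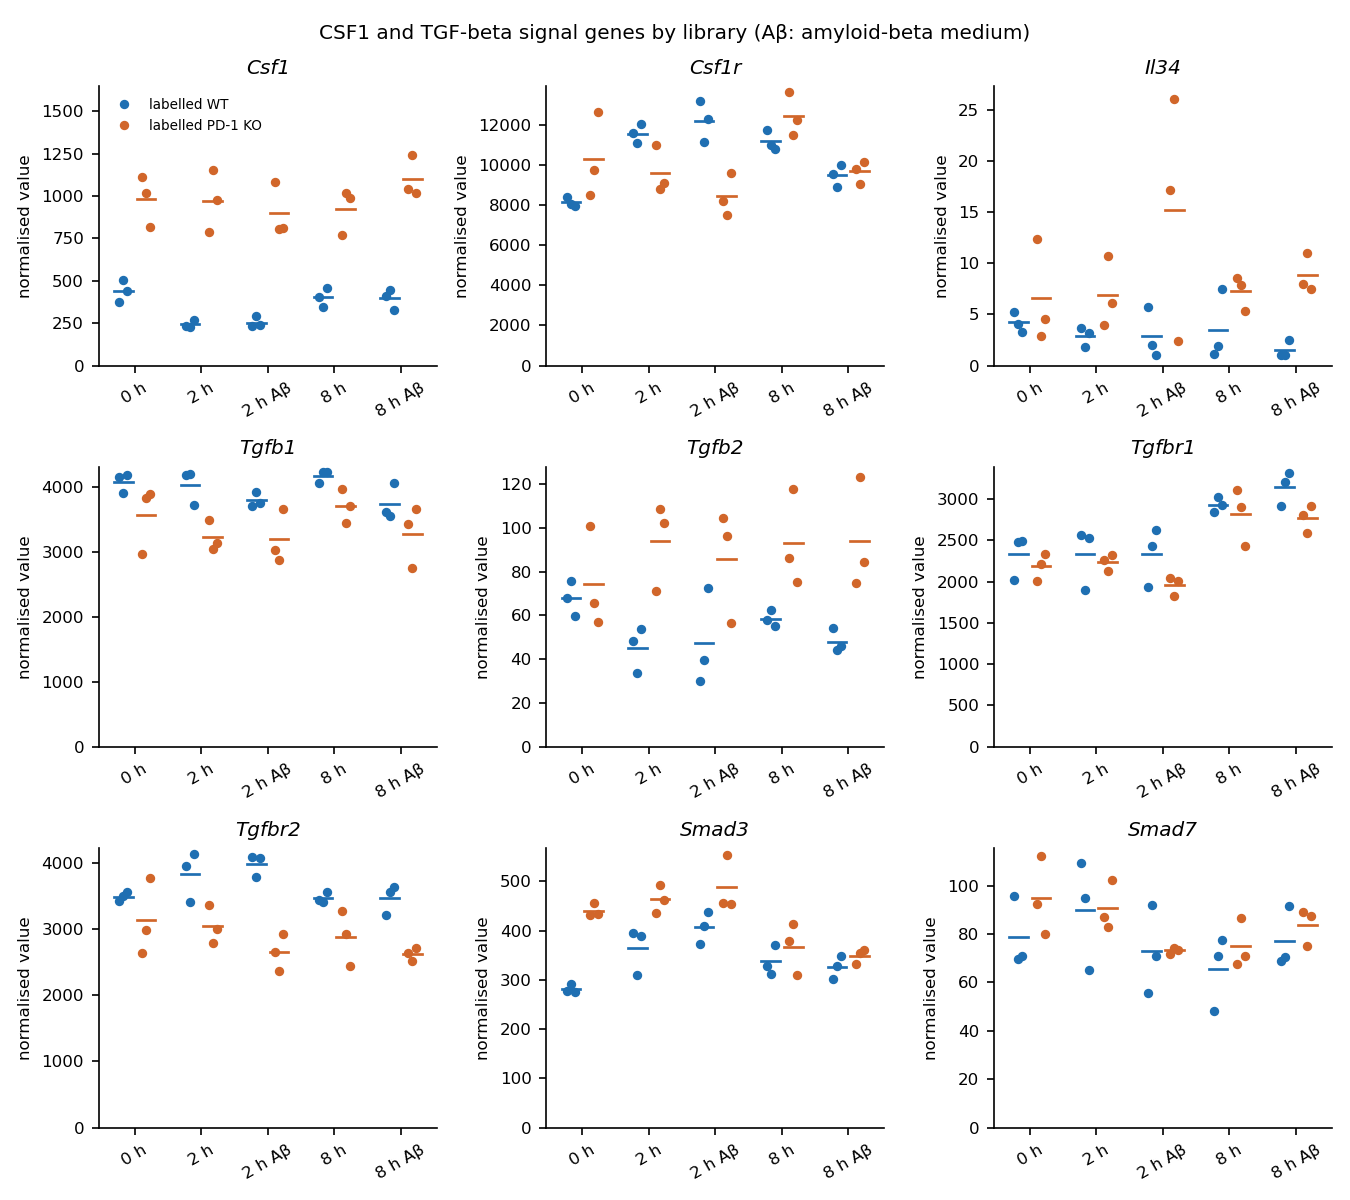
Normalised value of each of the 9 genes (vertical axis, from 0) in every library, by condition (horizontal axis; Aβ, amyloid-beta medium), for libraries labelled WT (blue) and PD-1 KO (orange); bars are means of 3. Csf1 in libraries labelled PD-1 KO (769 to 1243) lies above every library labelled WT (226 to 504), whereas the Csf1r groups change order between conditions.

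**Figure D2:**
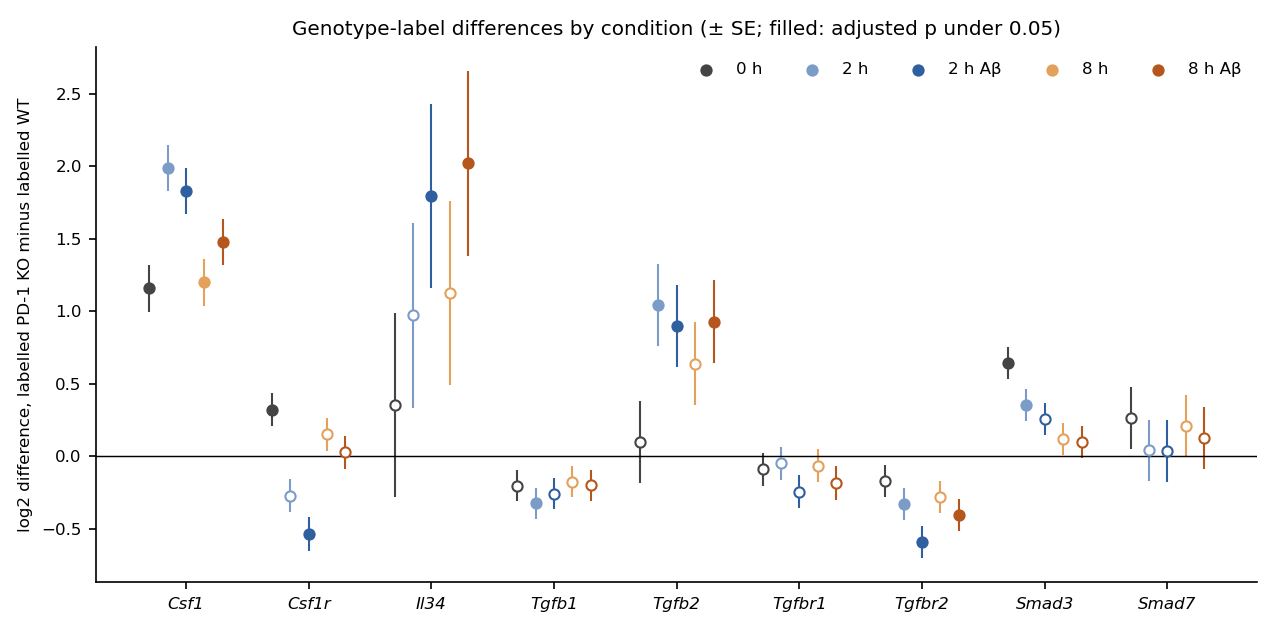
Log2 difference between libraries labelled PD-1 KO and labelled WT (vertical axis) for each gene in each of the 5 conditions; bars are ± 1 SE, and filled points have an adjusted p under 0.05 in limma. Csf1 is filled in all 5 conditions, at 1.16 to 1.99, and Smad7 in none.

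Csf1, the ligand released by glia and neurons, had the largest difference of the 9 when averaged over conditions. At 0 h its values were 376, 504 and 438 in libraries labelled WT and 1112, 1018 and 817 in those labelled PD-1 KO. At 2 h they were 232, 226 and 271 against 788, 1155 and 978, and with amyloid-beta 231, 290 and 237 against 1083, 807 and 813. The labelled groups were furthest apart at 2 h, where the libraries labelled WT were lowest. At 8 h the values were 406, 344 and 456 against 769, 1018 and 988, and with amyloid-beta 413, 448 and 328 against 1043, 1243 and 1019. No library labelled PD-1 KO overlapped any labelled WT over all conditions, a separation in this direction seen for 7.64% of tested genes.

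The Csf1 difference was 1.53 ± 0.07 averaged over conditions (2.89-fold, adjusted p = 1.6e-16), with 1237 of 13722 genes differing by at least as much. It was 1.16 ± 0.16 at 0 h, 1.99 ± 0.16 at 2 h, 1.83 ± 0.16 at 2 h with amyloid-beta, 1.20 ± 0.16 at 8 h and 1.48 ± 0.16 at 8 h with amyloid-beta, with adjusted p from 4.9e-10 to 5.2e-06. Ordered by mean, the 5 groups labelled PD-1 KO came first, from 1102 ± 123 down to 901 ± 158 (SD, n = 3). The 3 groups labelled WT at 0 h and 8 h followed at 396 to 439, and the 2 at 2 h came last at 252 ± 32.5 and 243 ± 24.3. Of the 9 gaps between neighbours in this order, 2 were wider than the sum of the neighbours' SDs: that between the labels, and that between the groups labelled WT at 2 h and the rest. Astrocyte markers were higher in the same libraries, 10 of 10 past the threshold in every condition, and their part in the Csf1 difference was not tested. In bulk libraries fewer cells of a type and less RNA per cell cannot be told apart.

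Il34, the other ligand of the receptor, lay near the floor, with 0 to 51 reads per library and 3 libraries labelled WT at the floor. Its values were 1 to 7.52 in the 15 libraries labelled WT (median 2.47) and 2.41 to 26.1 in the 15 labelled PD-1 KO (median 7.86), so the labels overlapped. At 2 h with amyloid-beta it read 5.70, 2.03 and 1 against 17.2, 26.1 and 2.41, and at 8 h with amyloid-beta 1, 1 and 2.47 against 8.02, 11 and 7.50. The third library labelled PD-1 KO at 2 h with amyloid-beta stood with the libraries labelled WT. Over all conditions Il34 differed by 1.25 ± 0.28 (adjusted p = 0.00041). With amyloid-beta it differed by 1.79 ± 0.63 at 2 h (adjusted p = 0.026) and by 2.02 ± 0.63 at 8 h (adjusted p = 0.014). With quantile normalization the first came to 0.09 and did not pass (adjusted p = 0.78), nor did the others at 0.61 and 0.60. In a fit of only the groups compared the call at 2 h with amyloid-beta ended too (adjusted p = 0.11). The call at 2 h with amyloid-beta ended without replicate 2 or 3 labelled WT (1.70 and 1.40) or replicate 1 or 2 labelled PD-1 KO (1.49 and 1.20), and that at 8 h with amyloid-beta without replicate 2 of either label (1.89 and 1.86).

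Csf1r, the receptor of both ligands and a gene of macrophages, did not keep a direction between the labels. At 0 h it read 8416, 8067 and 7977 in libraries labelled WT and 8538, 9750 and 12664 in those labelled PD-1 KO. At 2 h the values were 11600, 11103 and 12045 against 11005, 8801 and 9130, and with amyloid-beta 13202, 11148 and 12325 against 8237, 7517 and 9611. Libraries labelled PD-1 KO were thus higher at 0 h and lower in both 2 h conditions, each without overlap. At 8 h the values were 11776, 11041 and 10818 against 13661, 11531 and 12251, and with amyloid-beta 9582, 8939 and 10013 against 9825, 9094 and 10181, both overlapping.

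The Csf1r difference was 0.32 ± 0.11 at 0 h (adjusted p = 0.047), -0.27 ± 0.11 at 2 h (adjusted p = 0.073) and, with amyloid-beta, -0.54 ± 0.11 (adjusted p = 0.00045). It came to 0.15 ± 0.11 at 8 h, and the average over conditions was -0.06 ± 0.05 (95% interval -0.17 to 0.04, adjusted p = 0.32). With quantile normalization the average turned to 0.22 (adjusted p = 8.9e-07), the value at 2 h with amyloid-beta to -0.06 (adjusted p = 0.5), and those at 8 h and 8 h with amyloid-beta each to 0.32, past the threshold. The call at 0 h ended without any of the 3 libraries labelled WT (0.30 to 0.34), without replicate 2 labelled PD-1 KO (0.35) and without its replicate 3 (0.16, adjusted p = 0.33), and that at 2 h came to pass without replicate 1 labelled PD-1 KO (-0.37). The 0 h call ended as well with TMM scaling (adjusted p = 0.073), without an intensity trend (0.060) and in a fit of only these groups (0.17). The summed microglia markers, WT against PD-1 KO, were 73138 to 87429 against 58266 to 90401 at 0 h and 96894 to 112118 against 60132 to 74674 at 2 h. With amyloid-beta at 2 h they were 100974 to 116630 against 52696 to 61898. At 8 h they were 80718 to 91563 against 66406 to 83023, and with amyloid-beta 71813 to 73214 against 49185 to 56714. The sums were thus separate and lower in PD-1 KO at 8 h with amyloid-beta, where Csf1r overlapped. Their part in the Csf1r differences was not tested.

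**Figure D3:**
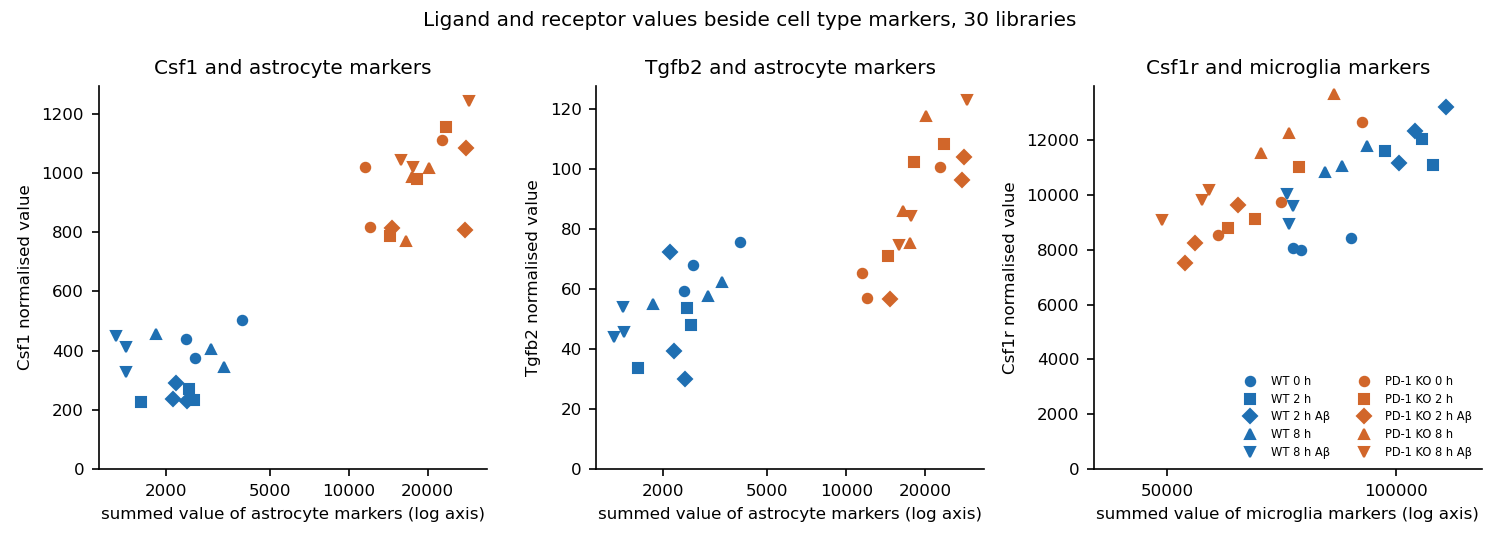
Csf1 and Tgfb2 against the summed value of 10 astrocyte markers, and Csf1r against that of 12 microglia markers (horizontal axes, log scale), for the 30 libraries; colour gives the label (blue WT, orange PD-1 KO) and shape the condition. The astrocyte sums of the labels do not overlap (up to 3923 and from 11515), so label and sum separate the libraries in the same way, whereas the microglia sums overlap.

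Tgfb1, the main TGF-beta ligand of microglia, was slightly lower in libraries labelled PD-1 KO. It ranged from 3554 to 4229 in the 15 libraries labelled WT (median 4055) and from 2746 to 3966 in the 15 labelled PD-1 KO (median 3434). At 2 h the values were 4177, 4202 and 3720 against 3493, 3045 and 3131, which do not overlap. The groups were also separate at 0 h, 2 h with amyloid-beta and 8 h, in the same direction, and overlapped at 8 h with amyloid-beta. At 0 h they nearly touched, with a highest PD-1 KO value of 3895 and a lowest WT value of 3896. The same values were 3664 and 3700 at 2 h with amyloid-beta, and 3966 and 4055 at 8 h. The difference was -0.23 ± 0.05 over all conditions (adjusted p = 0.00013), and 6341 genes differed by at least as much. At 2 h it was -0.32 ± 0.11 (adjusted p = 0.020), and no other single condition passed. Voom on reads recovered from the values, a weighted fit, gave -0.10 for the average (adjusted p = 0.061) and -0.16 at 2 h, neither past the threshold. Quantile normalization gave -0.11 for the average, past the threshold, and -0.15 at 2 h, not past it. At 2 h the call also ended without replicate 1 or 2 labelled WT (-0.30 and -0.29) or replicate 2 or 3 labelled PD-1 KO (-0.28 and -0.30), and at 2 h with amyloid-beta one appeared without replicate 3 labelled PD-1 KO (-0.36).

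The libraries labelled PD-1 KO had more of Tgfb2, a less abundant ligand. Its values at 2 h were 48.2, 33.8 and 53.7 in libraries labelled WT and 71.2, 108 and 102 in those labelled PD-1 KO. With amyloid-beta they were 29.9, 39.5 and 72.3 against 104, 96.4 and 56.7 at 2 h, and 54.1, 44.1 and 45.8 against 74.6, 123 and 84.3 at 8 h. Only the 2 h groups with amyloid-beta overlap among these 3 pairs. At 0 h the values were 68.1, 75.9 and 59.5 against 101, 65.4 and 57.1, and at 8 h 57.9, 62.3 and 55.2 against 86.0, 118 and 75.3. Tgfb2 thus overlapped at 0 h and was separate at 8 h.

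The Tgfb2 difference was 0.72 ± 0.13 over all conditions (1.65-fold, adjusted p = 1.8e-05). It was 0.10 ± 0.28 at 0 h (adjusted p = 0.86), 1.04 ± 0.28 at 2 h (adjusted p = 0.0056), 0.90 ± 0.28 at 2 h with amyloid-beta (0.013), 0.64 ± 0.28 at 8 h (0.099) and 0.93 ± 0.28 at 8 h with amyloid-beta (0.012). With quantile normalization the average came to 0.27, still past the threshold, and the calls at 2 h (0.61), 2 h with amyloid-beta (0.34) and 8 h with amyloid-beta (0.32) ended. They also ended at 2 h without replicate 2 labelled WT (0.85), at 2 h with amyloid-beta without replicate 1 labelled WT (0.62) or replicate 1 or 2 labelled PD-1 KO (0.73 and 0.79), and at 8 h with amyloid-beta without replicate 2 labelled PD-1 KO (0.72). In a fit of only the groups compared the call at 2 h with amyloid-beta ended as well (adjusted p = 0.078). The 10 astrocyte markers were higher in the same libraries, and their part in the Tgfb2 difference was not tested.

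The libraries labelled PD-1 KO had less of Tgfbr2, the ligand-binding receptor. At 2 h it read 3960, 3414 and 4143 in libraries labelled WT and 3370, 2790 and 3002 in those labelled PD-1 KO, and with amyloid-beta 4094, 3786 and 4075 against 2653, 2375 and 2931. At 8 h the values were 3445, 3420 and 3562 against 3285, 2925 and 2450, and with amyloid-beta 3221, 3558 and 3637 against 2636, 2520 and 2714. The groups did not overlap in any of these 4 conditions. At 0 h, with 3424, 3502 and 3558 against 2639, 2994 and 3784, the third library labelled PD-1 KO was the highest of the 6. The difference was -0.35 ± 0.05 over all conditions (1.28-fold lower, adjusted p = 4.5e-07). It was -0.33 ± 0.11 at 2 h (adjusted p = 0.022), -0.59 ± 0.11 at 2 h with amyloid-beta (8.9e-05) and -0.40 ± 0.11 at 8 h with amyloid-beta (0.0050), and did not pass at 0 h (-0.17) or 8 h (-0.28). The call at 2 h ended with quantile normalization (-0.17) and voom (-0.16), and without replicate 1 or 3 labelled WT (-0.30 and -0.27) or replicate 2 or 3 labelled PD-1 KO (-0.27 and -0.32). It appeared at 0 h without replicate 3 labelled PD-1 KO (-0.31) and at 8 h without replicate 1 labelled PD-1 KO (-0.38).

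Tgfbr1, the kinase receptor that TGFBR2 recruits, ranged from 1899 to 3317 in libraries labelled WT (median 2563) and from 1831 to 3114 in those labelled PD-1 KO (median 2321). The labels overlapped in every condition but 8 h with amyloid-beta, where the values were 2923, 3207 and 3317 against 2808, 2589 and 2917. Its average difference of -0.13 ± 0.05 passed by a small margin (adjusted p = 0.037), and 9197 genes differed by at least as much. Voom gave 0.011, quantile normalization -0.03 (adjusted p = 0.54) and a fit without trend an adjusted p of 0.054. Leaving out single libraries kept the call in 16 of 30 cases, with values from -0.15 to -0.10. It ended without replicate 2 or 3 labelled WT at 0 h, replicate 1 or 3 at 2 h, 2 or 3 at 2 h with amyloid-beta, 2 at 8 h and 2 or 3 at 8 h with amyloid-beta. Among those labelled PD-1 KO it ended without replicate 1 at 0 h, 2 at 2 h, 2 at 2 h with amyloid-beta, 3 at 8 h and 2 at 8 h with amyloid-beta. No single condition passed, except 2 h with amyloid-beta without replicate 1 labelled WT (-0.37) and 8 h with amyloid-beta in a fit of only these groups (-0.18).

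Smad3, which carries the receptor signal to the nucleus, differed most at 0 h. There it read 276, 291 and 276 in libraries labelled WT and 432, 457 and 433 in those labelled PD-1 KO. At 2 h the values were 396, 310 and 389 against 437, 494 and 463, and with amyloid-beta 373, 410 and 438 against 455, 554 and 455. The groups were separate at these 3 points and overlapped at 8 h (329, 313 and 371 against 380, 413 and 311) and at 8 h with amyloid-beta. The difference was 0.65 ± 0.11 at 0 h (1.56-fold, adjusted p = 8.2e-05), 0.35 ± 0.11 at 2 h (0.015), 0.26 ± 0.11 at 2 h with amyloid-beta (0.066), 0.12 ± 0.11 at 8 h (0.48) and 0.10 at 8 h with amyloid-beta. Averaged, it was 0.30 ± 0.05 (adjusted p = 8.5e-06). Voom put the value at 2 h with amyloid-beta past the threshold (0.43), as did leaving out its replicate 3 labelled WT (0.31), and the call at 2 h ended without replicate 2 of either label (0.24 for WT, 0.31 for PD-1 KO).

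Smad7, the inhibitory SMAD, did not pass in any condition. It ranged from 48.0 to 109 in libraries labelled WT (median 71.1) and from 67.7 to 112 in those labelled PD-1 KO (median 83.0). The average difference was 0.14 ± 0.10 (95% interval -0.06 to 0.33, adjusted p = 0.22), and with quantile normalization it turned to -0.27, past the threshold. The groups overlapped in all 5 conditions.

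The untreated times were compared to ask how the signals moved in culture. In the sample titles all 8 h libraries are numbered apart from those of 0 h and 2 h, and the reason is not stated. Changes from 0 h to 8 h therefore cannot be told apart from any difference between these sets of libraries. In libraries labelled WT, Csf1 fell and Csf1r rose from 0 h to 2 h, 2 of the 9 genes, where 4.75% of all genes passed. Csf1 went from 439 ± 64.2 to 243 ± 24.3 (SD, n = 3), a change of -0.85 ± 0.16 (adjusted p = 0.0018), and Csf1r from 8153 ± 232 to 11583 ± 471, a change of 0.51 ± 0.11 (adjusted p = 0.0090). The 2 h groups did not overlap the 0 h groups for either gene. How common such a separation is among all genes was not counted between times. At 8 h Csf1 was back at 402 ± 56.2, while Csf1r stood at 11212 ± 502 (0.46 ± 0.11 against 0 h, adjusted p = 0.015), the only 1 of the 9 past the threshold there (6.05% of all genes). Smad3 stood at 0.37 ± 0.11 from 0 h to 2 h and missed the threshold (adjusted p = 0.051). It passed with a filter at a value of 50 and without WT replicate 2 of 2 h (0.48). A fit with only the groups compared ended both calls at 2 h (adjusted p = 0.066 each), and the Csf1r call at 8 h ended without WT replicate 2 or 3 of 0 h (0.45 and 0.44) or replicate 1 of 8 h (0.42).

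Microglia markers moved in the same libraries: 6 of 12 rose from 0 h to 2 h in libraries labelled WT and 0 fell, and 0 of 10 astrocyte markers passed. Their part in the changes of Csf1 and Csf1r was not tested. In libraries labelled PD-1 KO, 0 of the 9 genes passed at 2 h (0.634% of all genes; 0 at an unadjusted p under 0.05 and 0 with voom). At 8 h 0 passed as well (3.29% of all genes; 3 at an unadjusted p under 0.05 and 0 with voom). Tgfbr1 stood higher at 8 h than at 0 h in both labels, by 0.34 ± 0.11 in WT (adjusted p = 0.081) and by 0.36 ± 0.11 in PD-1 KO (adjusted p = 0.089). In the latter it passed with quantile normalization (0.37) and without replicate 3 of 8 h (0.46), and Csf1r passed with quantile normalization (0.32) and without replicate 3 of 0 h (0.45).

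The change from 0 h to 2 h was not shown to differ between the labels. The difference of the changes was 0.83 ± 0.23 for Csf1 (adjusted p = 0.078) and -0.59 ± 0.16 for Csf1r (adjusted p = 0.081), with 0 of the 9 past the threshold (0.736% of all genes; 3 at an unadjusted p under 0.05 and 0 with voom). Csf1 passed without replicate 1 of WT 0 h (0.94), PD-1 KO 0 h (0.92) or PD-1 KO 2 h (0.97), and Csf1r without either of the latter (-0.72 and -0.69). For the change from 0 h to 8 h 0 of the 9 passed (0.270% of all genes; 1 at an unadjusted p under 0.05 and 0 with voom). That 1 was Smad3, at -0.53 ± 0.16 (adjusted p = 0.18).

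Amyloid-beta was compared with none in each label and at each time to ask whether the signals respond to it. None of the 9 genes passed in limma at 2 h in WT or in PD-1 KO (0% of all genes in each), with 0 at an unadjusted p under 0.05 and 0 with voom. At 8 h 0 passed in WT (2.18% of all genes) and 0 in PD-1 KO (0.0583%), with 1 gene at an unadjusted p under 0.05 in each and 0 with voom. That gene was Csf1r in both. It went from 11212 ± 502 to 9511 ± 541 in WT (-0.24 ± 0.11, adjusted p = 0.35), where the values of 3 libraries with amyloid-beta lay below those without. In PD-1 KO it went from 12481 ± 1084 to 9700 ± 554 (-0.36 ± 0.11, adjusted p = 0.29), again without overlap. The share of all genes without overlap was not counted for the amyloid-beta comparisons, so these separations cannot be weighed.

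The 95% intervals give the size of change that the data allow. Csf1 changed with amyloid-beta by 0.05 at 2 h in WT (-0.27 to 0.38) and by -0.02 at 8 h (-0.35 to 0.30). In PD-1 KO it changed by -0.11 at 2 h (-0.44 to 0.22) and by 0.26 at 8 h (-0.07 to 0.58). These intervals hold changes of both signs. Tgfb2 had intervals from -0.86 to 0.59 over the 4 comparisons, and the intervals of Tgfb1, Tgfbr1 and Tgfbr2 ran from -0.43 to 0.34. Those of Smad3 ran from -0.29 to 0.39 and those of Smad7 from -0.74 to 0.68. Il34 was the least certain, with intervals from -1.94 to 1.98. For Csf1r at 8 h, with an unadjusted p under 0.05 in limma in both labels, the intervals held only negative changes. Neither change passed after adjustment. Of 12 microglia markers, 10 lay below 0 and 2 above with amyloid-beta at 8 h in each label. Their median was -0.21 in WT, where 1 passed as lower, and -0.40 in PD-1 KO, where 0 passed. The part of microglia markers in the Csf1r changes was not tested. The amyloid-beta effect was not shown to differ between the labels for any of the 9. Past the threshold were 0 at 2 h (0.0510% of all genes) and 0 at 8 h (0% of all genes). In each, 0 stood at an unadjusted p under 0.05 and 0 passed with voom. In WT at 8 h, 4 of 10 astrocyte markers fell with amyloid-beta, but 0 did with quantile normalization.

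Other genes of the pathways were followed in lists, counted for the average over conditions, and each count is to be set beside the 30.3% of all genes that were higher and the 29.1% that were lower. The list of TGF-beta latency and activation genes had 6 of 10 tested members higher in libraries labelled PD-1 KO and 1 lower, with a median of 0.93. Tgfb3, the ligand related to Tgfb1 and Tgfb2, was higher by 1.79 ± 0.10 (194 ± 36.6 against 59.5 ± 26.8, SD, n = 15). Itgb8, the integrin subunit that frees latent TGF-beta, was higher by 1.59 ± 0.18 (296 ± 93.5 against 98.9 ± 36.3). Ltbp4 and Ltbp2, matrix proteins of the latent TGF-beta binding family, were higher by 1.10 ± 0.12 and 1.08 ± 0.26, which came to 0.53 and 0.00 with quantile normalization. The list's median was 0.29 with that scaling, with 6 higher and 1 lower as before. Nrros, which holds latent TGF-beta1 on the microglial surface, was the 1 lower gene, at -0.29 ± 0.04 (2162 ± 350 against 2625 ± 255).

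Of the receptors and SMAD partners 6 of 17 were higher and 4 lower (median 0.07), which is near the shares over all genes. Tgfbr3, the coreceptor betaglycan, was higher by 1.89 ± 0.17 (73.4 ± 24.8 against 19.2 ± 6.65). Smad6, an inhibitory SMAD, was higher by 1.44 ± 0.21 and the repressor Tgif2 by 0.80 ± 0.13 (0.60 and 0.27 with quantile normalization). Bambi, a decoy receptor, was lower by -0.63 ± 0.06 (176 ± 61.1 against 268 ± 84.6). With quantile normalization 8 of the 17 were higher and 7 lower, and the median turned to -0.02. Bambi also rose from 0 h to 2 h in both labels, by 0.74 ± 0.14 in WT and 0.87 ± 0.14 in PD-1 KO.

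Among general TGF-beta targets 9 of 14 were higher and 2 lower (median 0.56). Id3, a regulator that also answers to BMP signals, was higher by 2.01 ± 0.11 (279 ± 87.3 against 73.9 ± 40.3). Cyr61 and Ctgf, matricellular genes, were higher by 1.44 ± 0.13 and 1.17 ± 0.15, and Tgfbi by 1.16 ± 0.08, of which Ctgf came to 0.66 with quantile normalization. Id2, a relative of Id3, was lower by -0.07 ± 0.03, a call that quantile normalization ended (0.01). In libraries labelled WT, Cyr61 fell from 0 h to 2 h by 2.66 on the log2 scale, Ctgf by 1.97 and Id3 by 1.20, while Tgfbi rose by 0.94 ± 0.19.

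Microglial genes that depend on TGF-beta went both ways, with 5 of 12 tested members higher and 6 lower (median -0.36). Olfml3 was lower by -4.18 ± 0.10 (33.5 ± 8.81 against 616 ± 130), Fcrls by -1.46 ± 0.08 and Gpr34 by -1.09 ± 0.10. Cx3cr1, the fractalkine receptor, was higher by 0.71 ± 0.08. Quantile normalization left 3 higher and 7 lower. P2ry12 and Tmem119, higher by 0.24 and 0.45, turned to -0.15 and -0.16 with it. The list of genes that relay the CSF1 receptor signal had 11 of 16 lower and 2 higher (median -0.26), and the 2 were Sdc1 (0.82 ± 0.13) and Ptprz1 (0.75 ± 0.12), which are alternative binding partners of IL-34. With quantile normalization Sdc1 came to 0.24 and did not pass. Tyrobp, an adaptor used by the receptor, was lower by -0.61 ± 0.06 (8561 ± 1504 against 13136 ± 2492), and Cbl, which ubiquitinates it, by -0.55 ± 0.14.

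Beside all these lists stand the astrocyte markers, higher in 10 of 10 cases with a median of 2.68. Gfap stood at 7133 ± 2538 in libraries labelled PD-1 KO and 451 ± 193 in those labelled WT, Aqp4 at 3683 ± 904 and 364 ± 177, and Gja1 at 1815 ± 714 and 154 ± 90.9. Oligodendrocyte lineage markers had 7 of 11 higher and 3 lower. Of 7 fibroblast and vascular markers 4 higher and 1 lower, and of 7 neuron markers 3 higher and 4 lower. Of 12 microglia markers 4 were higher and 6 lower. Of 11 markers of neutrophils, lymphocytes and red cells 1 was in the table, Cd8a, at the floor in all libraries but 1. The part of these cells in the list counts was not tested.

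**Figure D4:**
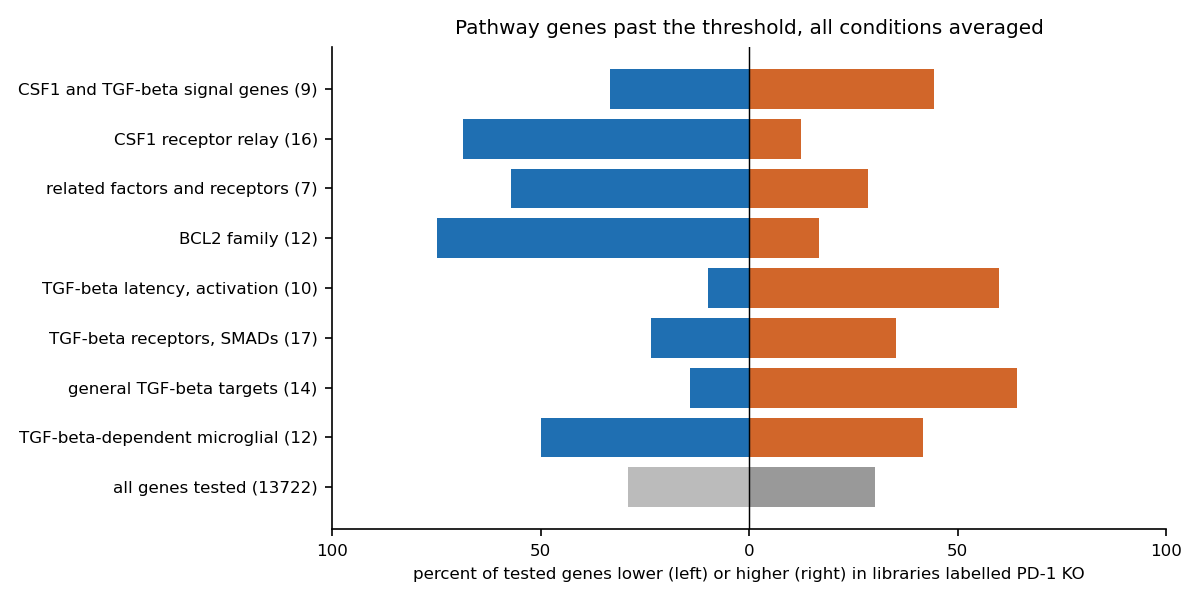
Percent of the tested genes of each list (number in brackets) that were lower (left, blue) or higher (right, orange) in libraries labelled PD-1 KO, averaged over conditions, at an adjusted p under 0.05; grey bars give all 13722 tested genes (29.1% lower, 30.3% higher). The latency and activation list (6 of 10) and the general target list (9 of 14) lean to higher, and the CSF1 receptor relay (11 of 16) to lower.

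Genes with a pattern close to each of the 9 were found by the root mean square distance between centred log2 group means, over 10 groups and 11245 genes. All of these values share the same libraries and scaling. The closest to Csf1 were Map1b (0.14), Ston2 (0.18) and B3galt5 (0.18), against a spread of Csf1 itself of 0.81. Csf1r was closest to Spi1 (0.07), a marker of the microglia list, then Acp2 and Limd2. Il34 was closest to Tenm3 (0.11), Lrrc1 and Bcar1, and Tgfb2 to Ptprm (0.10), Pbxip1 and Ckap5. For Tgfb1 the nearest were Ebag9 (0.03), Stambp and Tsg101, and for Tgfbr2 Ostf1 (0.04) and Dhx38. For Tgfbr1 they were Pik3cb (0.06), Riok3 and Tmem68, for Smad3 Alox5ap (0.09), Stat3 and Ttc39c, and for Smad7 Rab4a (0.08), Ccdc61 and Impa1. A gene with a small spread, such as Tgfb1 (0.14), is close to many genes.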

How the data were processed

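RNA-seq of mouse primary microglia gave 1 value per gene and library. The deposited signal values are, as they show, counts divided by 1 size factor per library and floored at 1, with 4485 values (1.08%) at the floor. Genes at the floor numbered 142 to 452 per library labelled WT and 25 to 96 per library labelled PD-1 KO. Median reads were 9442385 and 9763779. HISAT 0.1.5, Partek 6.6, R 3.0.2, DESeq2 and build mm10 are named, without role, per the submitters' processing notes. Libraries held 4227019 to 48509985 reads, found from the step between values. The floor could hide up to 4 reads in 12 libraries, which limits genes with few reads. Il34 was at the floor in 3 libraries, in each of which 1 read would have stood above it.

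Differences were tested with limma 3.58.1 (R 4.3.3; moderated test with an intensity trend) on log2(value + 1), which understates changes of low genes. Genes reaching a value of 10 in at least 3 libraries entered: 13722 of 13788, with all 9 members, Il34 through libraries labelled PD-1 KO alone. 1 fit held a mean for each of the 10 groups, and p-values were adjusted within each of 18 comparisons by Benjamini-Hochberg over all genes. The steps were tested on simulated data. Alternatives were other pseudocounts, filters, scalings (TMM, quantile) and designs, each library left out, and voom, added after seeing the data.

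All 9 members are named. From each pathway list up to 4 genes per comparison were named by size among those past the threshold. Nrros, Id2, P2ry12, Tmem119 and Mcl1 were chosen after their values were seen. The members and lists were chosen with earlier results of these data known. Lengths and positions came from GENCODE M21 (GRCm38). Some genes that these rules name are not reported here. Libraries of a group held equal values in 17 to 180 of the 13788 genes, floor values included.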

Additional observations from a re-analysis of the deposited data

How the results depend on the processing

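The Csf1 difference between the labels kept its direction and call under every setting run, in all 5 conditions and in the average. Pseudocounts of 0 and 10 and no filter changed none of the 162 member results (9 genes, 18 comparisons), TMM scaling ended 1 call and a fit without trend 2. Quantile normalization ended 10 calls and added 4 in the same direction. In 2 more results that had not passed, the sign turned and the threshold was passed: Csf1r averaged came to 0.22 and Smad7 averaged to -0.27. With it 2 members passed at 2 h, 2 at 2 h with amyloid-beta, 2 at 8 h and 2 from 0 h to 8 h in PD-1 KO. It moved the share of higher calls from 66.8% to 51.3% at 0 h, 58.5% to 42.3% at 2 h, 57.1% to 40.4% at 2 h with amyloid-beta, 66.6% to 46.0% at 8 h and 65.3% to 40.9% at 8 h with amyloid-beta. Voom gave 3 members at 2 h and turned Tgfbr1 averaged to 0.011. A fit of only the groups compared gave 3 members at 2 h with amyloid-beta and 0 from 0 h to 2 h in WT. Il34 was not tested with a filter at 50, which added 1 call. The cause of these changes was not tested.

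Leaving out single libraries gave 6 to 7 members for the average, 2 to 3 at 0 h, 2 to 6 at 2 h, 3 to 6 at 2 h with amyloid-beta, 1 to 2 at 8 h and 2 to 4 at 8 h with amyloid-beta. Over time it gave 2 to 3 (2 h, WT), 0 (2 h, PD-1 KO), 0 to 1 (8 h, WT), 0 to 1 (8 h, PD-1 KO) and 0 to 2 for the label difference at 2 h. It gave 0 in every amyloid-beta comparison. The planned quasi-likelihood count test was not run, because the floor at 1 hides low reads. No paired analysis was possible because the replicate numbers follow accession order and pair no libraries.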

Other observations

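Relatives of CSF1 and genes of cell survival were counted as well, averaged over conditions, labelled PD-1 KO minus labelled WT. Of 7 tested colony-stimulating factor relatives 2 were higher and 4 lower (median -0.25), where 30.3% of all genes were higher and 29.1% lower, so the higher count is near that share. Kitl, the ligand of the KIT receptor, was lower by -0.93 ± 0.06 (652 ± 100 against 1249 ± 238, SD, n = 15), and Csf3r, the G-CSF receptor, by -0.45 ± 0.05. Csf2rb, the shared chain of the GM-CSF and IL-3 receptors, was higher by 0.35 ± 0.05 and Il3ra, which pairs with it, lower by -0.56 ± 0.09.

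Of 12 genes of the BCL2 family 2 were higher and 9 lower (median -0.23), beside the same 30.3% and 29.1% of all genes. Bcl2, which protects from cell death, was higher by 0.44 ± 0.07 (480 ± 88.3 against 361 ± 97.9). Bcl2a1b, a protective relative, was lower by -0.82 ± 0.06 (1591 ± 511 against 2707 ± 384), while its near-identical copy Bcl2a1a stood at 0.89 ± 0.16, a call that quantile normalization ended (0.33). Reads of these copies may have been split by the counting, so their values are uncertain. Pmaip1, which promotes cell death, rose from 0 h to 2 h by 0.68 ± 0.14 in libraries labelled WT and by 0.65 ± 0.14 in those labelled PD-1 KO. From 0 h to 8 h 3 of the 12 rose in libraries labelled WT and 0 fell, where 6.05% of all genes passed. In those labelled PD-1 KO 5 rose and 0 fell, where 3.29% of all genes passed. With quantile normalization 1 rose in WT and 5 in PD-1 KO. This change was not shown to differ between the labels, with 0 of the 12 past the threshold (0.270% of all genes). Among the 5 in PD-1 KO were Bcl2a1d (0.93 ± 0.14) and Mcl1 (0.40 ± 0.09), the latter chosen after its value was seen. With amyloid-beta at 8 h, Id1, a TGF-beta and BMP target, fell by -1.20 ± 0.20 in libraries labelled WT (adjusted p = 0.0017 in limma).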
